A study of Bubalus bubalis with 6 samples.

Results

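The insulin-like growth factor (IGF) family in buffalo muscle stem cells (MuSCs) was followed here through 10 gene symbols, namely the ligands IGF1 and IGF2, the receptors IGF1R and IGF2R, and the binding proteins IGFBP2 to IGFBP7. Members were the genes listed under these symbols in the deposited gene table, which gave 8 of the 24616 genes listed. IGFBP3 was not analysed here. The gene that the table describes as insulin like growth factor 1 stands under the symbol IGF-I. It was found by that description, with its values already seen, so it is reported beside the 8 members and left out of their counts.

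The deposited libraries were polyadenylated RNA of 3 proliferating samples kept in growth medium (GM samples) and 3 differentiating samples moved to differentiation medium (DM samples). All 6 samples were primary cells from fetal longissimus muscle of water buffalo, released with collagenase and trypsin and not described as sorted, so cells other than myogenic ones could be present in both groups. GM contained fetal bovine serum and DM a lower share of horse serum, and the labels do not give the day on which DM samples were taken, so the medium, the serum, the time in culture and the state of the cells differ together between the groups and cannot be told apart. The labels do not say whether the 3 samples of a group were separate cultures or animals, so the p-values measure the spread between these samples, which may be technical. Each sample held between 35615864 and 40305237 gene counts. DM replicate 3 stood apart from the other DM samples, since its counts gave 40.5 to 41.4 chi-square units per degree of freedom against them where DM replicates 1 and 2 gave 11.7, and the changes of the members are therefore also given without it.

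As background, IGF1 and IGF2 are small secreted growth factors that signal through the tyrosine kinase IGF1R. IGF2R, the cation-independent mannose 6-phosphate receptor, takes IGF2 up for breakdown in lysosomes and does not signal in that way. The IGFBPs bind IGFs outside the cell, prolong their life or keep them from the receptor, and are themselves cut by proteases that release the ligand. In muscle, IGFs are known to promote both the proliferation and the differentiation of myoblasts, and IGF2 made by the cells is a known signal during the differentiation of cultured myoblasts.

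The DM samples differed from the GM samples mainly in the ligand IGF-I and in 3 binding proteins. IGF-I transcripts were about 29.5-fold higher in DM samples. IGFBP5 was 20.55-fold lower and IGFBP6 2.41-fold lower, while IGFBP7 was 2.57-fold higher. IGF2, by far the most abundant member in both groups, showed no difference that passed the test, and both receptors differed by less than 2-fold.

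Changes were tested on the raw counts of all genes with edgeR's quasi-likelihood test, and a gene was called when it differed by more than 1 on the log2 scale with an adjusted p-value below 0.05. SE is the standard error of the log2 fold change. Fold changes are DM over GM, so that positive log2 values mean higher expression in DM samples. Of the 8 members, all of which were tested, 1 was called higher (IGFBP7) and 2 were called lower (IGFBP5 and IGFBP6). Among all 15576 tested genes 25.3% were called, 15.0% higher and 10.3% lower. The median log2 fold change was 0.20 over the 8 members and 0.03 over all tested genes. GM and DM samples did not overlap for 5 of the 8 members, where 68.8% of all tested genes did not overlap. These are bulk samples, so fewer cells of a type and less RNA per cell cannot be told apart. Levels are given as RPKM, the reads per kilobase of the listed gene length and scaled to the gene counts of the sample, the scale on which the levels of different genes are compared.

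**Figure D1:**
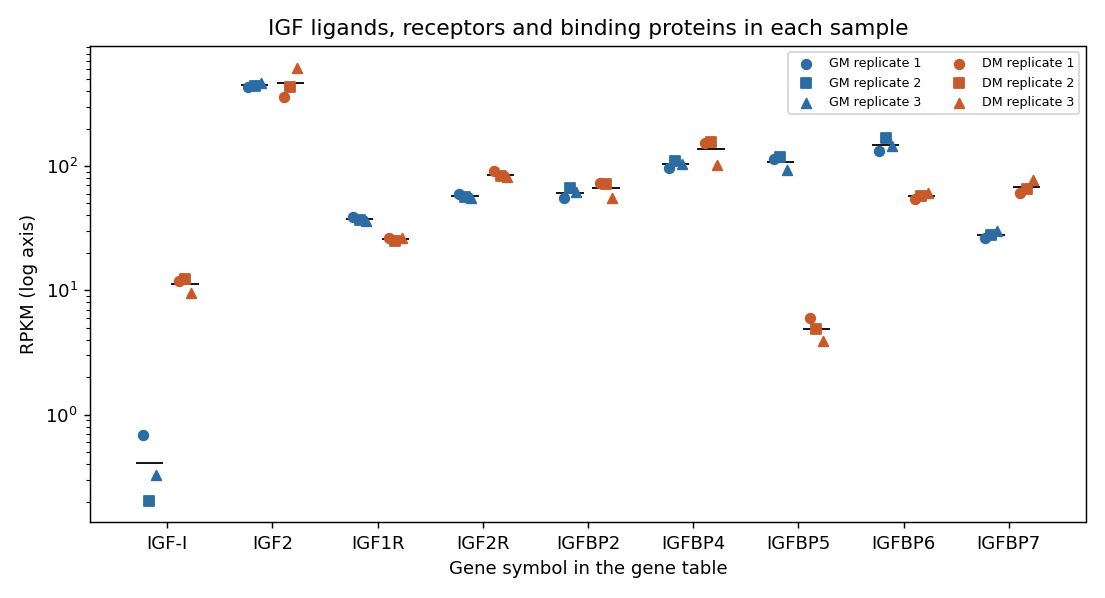
RPKM (log axis) of IGF-I and of the 8 members in each of the 3 GM samples and 3 DM samples. Points are samples and black lines are group means. IGF2 sits highest in both groups at means of 445 and 468 RPKM, IGF-I goes from below 1 to a mean of 11.3 RPKM, and IGFBP5 goes from a mean of 108 to 4.91 RPKM.

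Among the ligands, IGF2 (ENSBTAG00000013066, chromosome 29, 50046626 to 50065230, plus strand) had 435, 437 and 462 RPKM in GM replicates 1, 2 and 3. In DM replicates 1, 2 and 3 it had 357, 429 and 618 RPKM. In RPKM, DM replicate 3 lay above every GM sample while DM replicates 1 and 2 lay below them. In CPM (counts scaled to library size after TMM normalization), DM replicate 2 lay among the GM samples, at 1701 against 1635 to 1740. The groups overlapped on both scales. The log2 fold change was 0.17 ± 0.15 (SE, edgeR adjusted p = 0.357), and without DM replicate 3 it was -0.073 (edgeR adjusted p = 0.367). The mean level of IGF2 was higher than that of 98.8% of tested genes in GM samples and of 98.9% in DM samples. DM replicate 3 was also the sample with the highest summed level of the 10 tested myogenic markers, 5763 CPM against 4194 and 4568 CPM in DM replicates 1 and 2. MYH3, an embryonic myosin heavy chain, and the filament protein DES carried this difference. CKM was also highest in DM replicate 3, at 107 CPM against 92.4 and 85.4 CPM in DM replicates 1 and 2. PAX7, MYOD1, MYOG, ITGA7 and NCAM1 were instead lowest in DM replicate 3 among the DM samples. MYF5 and CDH15 lay between the other DM samples there. In the same sample the 9 tested fibroblast markers summed to 97686 CPM, against 123631 and 113093 CPM in DM replicates 1 and 2. Most of that sum came from the collagen genes COL1A1, COL1A2 and COL3A1. These and PDGFRA, DCN and LUM were lowest in DM replicate 3 among the DM samples, whereas THY1, FAP and PI16 were not. The part of these markers in the level of IGF2 was not tested.

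IGF-I (ENSBTAG00000011082, chromosome 5, 66532877 to 66604734, minus strand) was close to the lower end of detection in GM samples. It held 37, 11 and 16 counts in GM replicates 1, 2 and 3 and 566, 621 and 491 counts in DM replicates 1, 2 and 3. The lowest DM sample thus lay far above the highest GM sample. In RPKM this was 0.690, 0.204 and 0.325 in the GM samples and 11.9, 12.4 and 9.59 in the DM samples. IGF-I rose by a log2 fold change of 4.88 ± 0.30 (SE, edgeR adjusted p = 2.46e-07), and by 4.99 without DM replicate 3. GM replicate 1 held more counts than the other GM samples, and without it the log2 fold change was 5.51. The gene's mean level passed that of 17.5% of tested genes in GM samples and of 59.98% in DM samples.

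IGF2 remained the more abundant ligand per length in each of the 6 samples. The ratio of IGF2 RPKM to IGF-I RPKM was 631, 2148 and 1419 in GM replicates 1, 2 and 3. It was 30.1, 34.5 and 64.5 in DM replicates 1, 2 and 3. The ratio therefore was lower in each DM sample than in any GM sample, and in the GM samples it rests on 11 to 37 counts of IGF-I.

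IGF1R, the signaling receptor (ENSBTAG00000021527, chromosome 21, 8208822 to 8268093), had 38.9, 36.6 and 35.9 RPKM in the GM samples and 26.1, 24.8 and 26.3 RPKM in the DM samples. Each DM sample lay below each GM sample. The log2 fold change of -0.43 ± 0.064 (SE, edgeR adjusted p = 0.000161) did not reach the fold threshold. IGF2R (ENSBTAG00000002402, chromosome 9, 97638172 to 97740003) had 59.8, 56.0 and 55.5 RPKM in the GM samples and 91.5, 83.1 and 81.3 RPKM in the DM samples. Here each DM sample lay above each GM sample, with a log2 fold change of 0.68 ± 0.071 (SE, edgeR adjusted p = 1.13e-05) that was again below the fold threshold. The ratio of IGF2R to IGF1R RPKM was 1.54, 1.53 and 1.55 in the GM samples and 3.50, 3.35 and 3.09 in the DM samples. Both receptors thus had adjusted p-values under 0.05 in opposite directions, which 63.0% of all tested genes reached in one direction or the other when no minimum fold change was asked for.

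**Figure D2:**
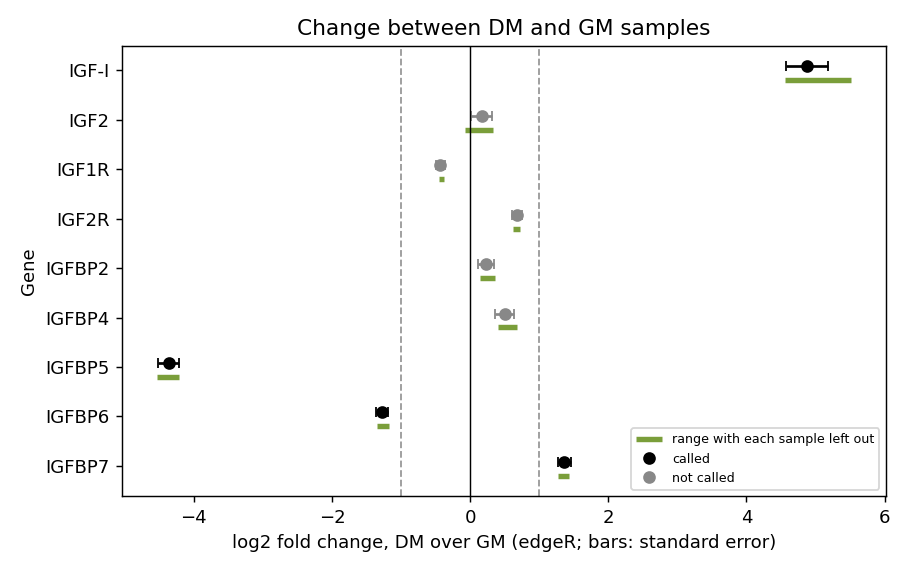
Log2 fold change, DM over GM, of IGF-I and the 8 members from edgeR, with the standard error as horizontal bars. Green lines span the values with each sample left out in turn, and dashed lines mark the fold threshold. IGFBP5 at -4.36 and IGF-I at 4.88 lie farthest from 0, and the green line of IGF2 crosses 0.

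IGFBP5 (ENSBTAG00000007062, chromosome 2, 105378991 to 105397646, minus strand), a binding protein that also attaches to the extracellular matrix, changed most among the 8 members. It held 4429, 4696 and 3325 counts in GM replicates 1, 2 and 3 and 209, 178 and 146 counts in DM replicates 1, 2 and 3. In RPKM it had 113, 119 and 92.4 in the GM samples and 5.98, 4.87 and 3.89 in the DM samples. The groups were separated by a wide margin. IGFBP5 fell, with a log2 fold change of -4.36 ± 0.16 (SE, edgeR adjusted p = 7.04e-09) that was -4.21 without DM replicate 3. Its mean level was above that of 94.4% of tested genes in GM samples and of 41.1% in DM samples.

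IGFBP2, whose gene lies next to IGFBP5 on chromosome 2 (ENSBTAG00000005596, 105338358 to 105367369, plus strand), had no called change. It had 55.3, 65.9 and 61.3 RPKM in the GM samples and 73.5, 71.2 and 55.2 RPKM in the DM samples. In RPKM, DM replicates 1 and 2 lay above the GM samples and DM replicate 3 lay slightly below the lowest of them. In CPM, DM replicate 3 lay among the GM samples, at 65.0 against 60.8 to 72.9. The groups overlapped on both scales. The log2 fold change was 0.23 ± 0.11 (SE, edgeR adjusted p = 0.0950), and without DM replicate 3 it was 0.36 (adjusted p = 0.000197 from edgeR), which is still below the fold threshold.

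IGFBP6 (ENSBTAG00000021467, chromosome 5, 27044009 to 27047853), a binding protein known for its preference for IGF2, had 133, 167 and 145 RPKM in the GM samples. In the DM samples it had 54.5, 57.6 and 60.7 RPKM. The highest DM sample lay below the lowest GM sample. IGFBP6 fell, with a log2 fold change of -1.27 ± 0.087 (SE, edgeR adjusted p = 5.01e-07) that was -1.30 without DM replicate 3.

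IGFBP7 (ENSBTAG00000019368, chromosome 6, 74071067 to 74150456, minus strand) is a secreted protein of the family that binds IGFs weakly. It had 26.5, 27.6 and 30.0 RPKM in the GM samples and 60.3, 65.4 and 76.5 RPKM in the DM samples. Each DM sample lay above each GM sample, with DM replicate 3 highest. IGFBP7 rose by a log2 fold change of 1.36 ± 0.093 (SE, edgeR adjusted p = 4.66e-07), and by 1.27 without DM replicate 3. Its listed interval shares 78 bases with POLR2B on the opposite strand, and the counting is not stated to use strand. POLR2B, which encodes an RNA polymerase II subunit, had a log2 fold change of 0.28 and 5475 to 6700 counts per sample.

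IGFBP4 (ENSBTAG00000008611, chromosome 19, 41326678 to 41338255), an inhibitory binding protein, had 96.8, 110 and 103 RPKM in the GM samples and 153, 156 and 102 RPKM in the DM samples. DM replicates 1 and 2 lay above the GM samples, whereas DM replicate 3 lay among them. The log2 fold change was 0.50 ± 0.14 (SE, edgeR adjusted p = 0.00835) and it was 0.68 without DM replicate 3. Neither value reached the fold threshold.

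In the order of mean RPKM in GM samples, IGF2 was followed by IGFBP6, IGFBP5, IGFBP4, IGFBP2, IGF2R, IGF1R, IGFBP7 and IGF-I. Among neighbours in that order, the samples overlapped for IGFBP5 with IGFBP4 and for IGFBP2 with IGF2R. In DM samples the order was IGF2, IGFBP4, IGF2R, IGFBP7, IGFBP2, IGFBP6, IGF1R, IGF-I and IGFBP5. There the samples of IGFBP7 overlapped those of IGFBP2, and those of IGFBP2 overlapped those of IGFBP6. IGFBP5 thus had rank 3 of these 9 genes in GM samples and rank 9 in DM samples.

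The composition of the binding proteins was described as the share of each in the summed RPKM of the listed IGFBP genes, without a test. The sum lacks IGFBP3, which was not analysed here, so the shares are not those of the whole family. IGFBP6 and IGFBP5 together held most of the sum in GM samples, at 33.0 ± 1.47% and 24.0 ± 2.60% (SD, n = 3). In DM samples they held 17.4 ± 2.53% and 1.47 ± 0.225%. IGFBP4 held 23.1 ± 0.719% in GM samples and 40.7 ± 5.62% in DM samples, where it was the largest part. The share of IGFBP7 was 6.27 ± 0.649% in GM samples and 20.5 ± 4.48% in DM samples. That of IGFBP2 was 13.5 ± 0.577% and 19.9 ± 1.36%. DM replicate 3 differed from the other DM samples, with 34.2% IGFBP4 against 44.0% in both of them and 25.6% IGFBP7 against 17.4 and 18.4%. IGFBP1 held at most 0.0574% in any sample, from 1 to 6 counts. The summed RPKM itself was 425, 490 and 432 in the GM samples and 347, 355 and 299 in the DM samples, so that each DM sample had less than each GM sample.

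**Figure D3:**
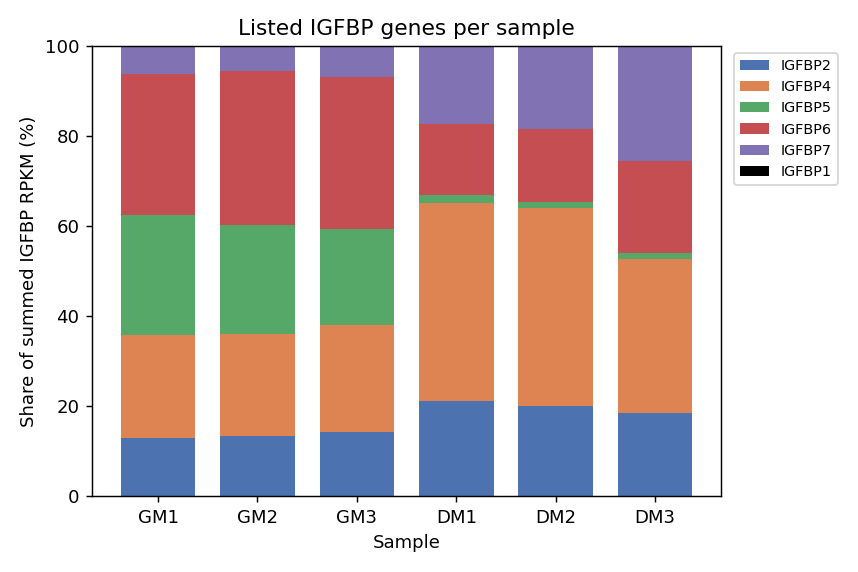
Share (%) of each listed IGFBP gene in their summed RPKM, 1 bar per sample. IGFBP3 is not part of the sum. The green part, IGFBP5, goes from 21.4 to 26.6% in GM samples to 1.30 to 1.72% in DM samples, and the purple part, IGFBP7, is larger in each DM sample than in any GM sample.

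At the transcript level, the 8 members had 9 listed mRNA transcripts, of which 1 was called higher and 2 were called lower. Among the 16352 tested transcripts 25.6% were called, 15.5% higher and 10.1% lower, 64.6% passed on the adjusted p-value alone whatever their fold change, and 70.2% had groups that did not overlap. IGF2 was the only one of the 8 with more than 1 listed transcript. Its longer transcript (ENSBTAT00000017372, 3795 bases) held 97.9 to 98.8% of the gene's count, and its shorter one (ENSBTAT00000044139, 1025 bases) held 37.7 to 41.8%. These shares exceed the whole when added, so reads were counted for each transcript they match, and the values do not split the gene between isoforms. The log2 fold changes of the longer and the shorter transcript were 0.16 (edgeR adjusted p = 0.382) and 0.060 (edgeR adjusted p = 0.728). IGF-I had 3 listed transcripts, which rose by log2 fold changes of 4.91, 4.34 and 4.68.

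Genes that act with the family were compared in 8 lists of 90 genes, of which 79 were tested. In these lists 9 genes were called higher and 9 lower, a share of 22.8%, against 25.3% of all tested genes. Their median log2 fold change was -0.066. The lists as a whole were therefore called about as often as genes in general. By count, most calls lay in the IGFBP proteases (6 of 9 tested genes, 66.7%) and in the PI3K, AKT and FOXO list (6 of 16, 37.5%). By share, the small list of other insulin and IGF family genes (3 of 6, 50%) stood above the latter.

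IGFBP proteases and their inhibitors had 9 tested genes, of which 3 were called higher and 3 lower. C1S, the complement serine protease that can cut IGFBP5, had 235, 183 and 222 counts in GM samples and 18138, 18392 and 15605 counts in DM samples. It rose by a log2 fold change of 6.52 ± 0.14 (SE, edgeR adjusted p = 4.16e-10). HTRA1, a secreted serine protease that cuts several matrix and IGF-binding proteins, rose from 194 ± 7.52 to 854 ± 83.7 CPM (SD, n = 3). STC1 and STC2 encode stanniocalcins, secreted inhibitors of the PAPPA proteases. STC1 fell from 7.17 ± 0.278 to 0.463 ± 0.238 CPM (log2 fold change -3.94). STC2 fell from 21.1 ± 1.08 to 6.21 ± 1.15 CPM (log2 fold change -1.77).

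The other called genes of this list, named after their values were seen, were HTRA3 and PAPPA. HTRA3, a relative of HTRA1, rose from 8.65 ± 0.471 to 28.2 ± 10.5 CPM. PAPPA encodes the metalloprotease that frees IGFs by cutting IGFBP4. It had 1550, 1359 and 961 counts in GM samples and 428, 260 and 752 counts in DM samples, with a log2 fold change of -1.25 ± 0.29 (SE, edgeR adjusted p = 0.00324). DM replicate 2 was lowest, and without it the log2 fold change of PAPPA was -0.93 and the call was lost. PAPPA2 and ADAM28 were listed with too few counts to be tested.

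In the list of other insulin and IGF family genes 6 were tested and 3 were called lower. KAZALD1, a secreted protein related to the IGFBPs, fell from 4.71 ± 0.362 to 2.12 ± 0.300 CPM. IGFBPL1 held 24, 28 and 24 counts in GM samples and 2, 0 and 9 counts in DM samples, with a log2 fold change of -2.59 that was -4.31 without DM replicate 3. INSRR, an orphan receptor related to IGF1R, was called from 5 counts in each GM sample against 0, 1 and 1 counts in DM samples, and the call was lost with DESeq2 (adjusted p = 0.146) and when any single sample was left out. INSR, the insulin receptor, which also binds IGF2, had 20.9 ± 2.23 CPM in GM samples and 19.0 ± 1.76 CPM in DM samples (adjusted p = 0.271 from edgeR). IGFALS, the acid-labile subunit that joins IGF and IGFBP in the circulating complex, had 6.81 ± 0.312 and 11.8 ± 1.03 CPM, with a log2 fold change of 0.79 below the fold threshold.

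None of the 3 IGF2 mRNA-binding proteins, which bind IGF2 transcripts in the cytoplasm, was called by edgeR, although 2 had adjusted p-values under 0.05. IGF2BP1 and IGF2BP2 had log2 fold changes of -0.78 and -0.53, and IGF2BP3 had one of -0.13 (adjusted p = 0.176). Of the 7 tested genes of mannose 6-phosphate sorting, the route that IGF2R shares, 0 were called by edgeR and 5 had adjusted p-values under 0.05. Among all tested genes 63.0% had edgeR adjusted p-values under 0.05, so neither list stood out by these counts. M6PR, the smaller mannose 6-phosphate receptor, had a log2 fold change of -0.48 where IGF2R had 0.68. GNPTAB, the enzyme that starts the tagging of lysosomal proteins, had one of 0.72. It was the 1 gene of this list with a positive value, while 6 had negative ones and the median was -0.33. GGA3 had the largest change of the list, with a log2 fold change of -0.88.

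Of 13 tested receptor adaptors and phosphatases, 1 was called. IRS2, which couples IGF1R to PI3K, rose from 14.5 ± 0.868 to 35.9 ± 1.28 CPM with a log2 difference of 1.31 ± 0.078 (SE, edgeR adjusted p = 1.86e-07). IRS1, which does the same work, had 127 ± 6.42 CPM in GM samples and 83.1 ± 2.51 CPM in DM samples, and its log2 fold change of -0.61 was below the fold threshold. Per length, IRS1 had 34.2 to 37.3 RPKM in GM samples and 20.6 to 22.4 RPKM in DM samples, above the 4.05 to 4.51 and 9.43 to 10.3 RPKM of IRS2.

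Of 16 tested genes of the PI3K, AKT and FOXO list, 4 were called higher and 2 lower. FOXO3, a transcription factor that AKT holds out of the nucleus, rose from 10.8 ± 1.13 to 33.7 ± 3.57 CPM with a log2 difference of 1.64 ± 0.11 (SE). FOXO4 rose by a log2 fold change of 1.21. The calls named after their values were seen were FOXO1, with a rise of 1.15, and PIK3R1, the regulatory subunit of PI3K, with a rise of 1.14. The catalytic subunits PIK3CD and PIK3CB fell, with log2 fold changes of -2.20 and -1.21. Without DM replicate 3 that of PIK3CD was -2.91, while that of PIK3CB was -0.97 and its call was lost. PIK3CA, a more abundant catalytic subunit, was not called, with a log2 fold change of 0.15 (edgeR adjusted p = 0.113). It had mean levels of 10.5 and 10.9 RPKM in GM and DM samples. PIK3CB had 2.09 and 0.848 RPKM there, and PIK3CD had 0.511 and 0.103 RPKM. AKT1 and AKT2 had log2 fold changes of -0.42 and -0.50, both below the fold threshold.

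Of 15 tested genes of the mTOR and S6 kinase list, DEPTOR alone was called. This inhibitor of mTOR held 1, 4 and 1 counts in GM samples and 37, 55 and 33 counts in DM samples, which gave a log2 difference of 4.47 ± 0.55 (SE, edgeR adjusted p = 4.08e-05), or 5.35 without GM replicate 2. In the RAS and MAP kinase list RPS6KA1, a kinase downstream of ERK, was the single call among 10 tested genes. It fell from 16.9 ± 0.448 CPM in GM to 3.01 ± 0.400 CPM in DM (log2 fold change -2.49).

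**Figure D4:**
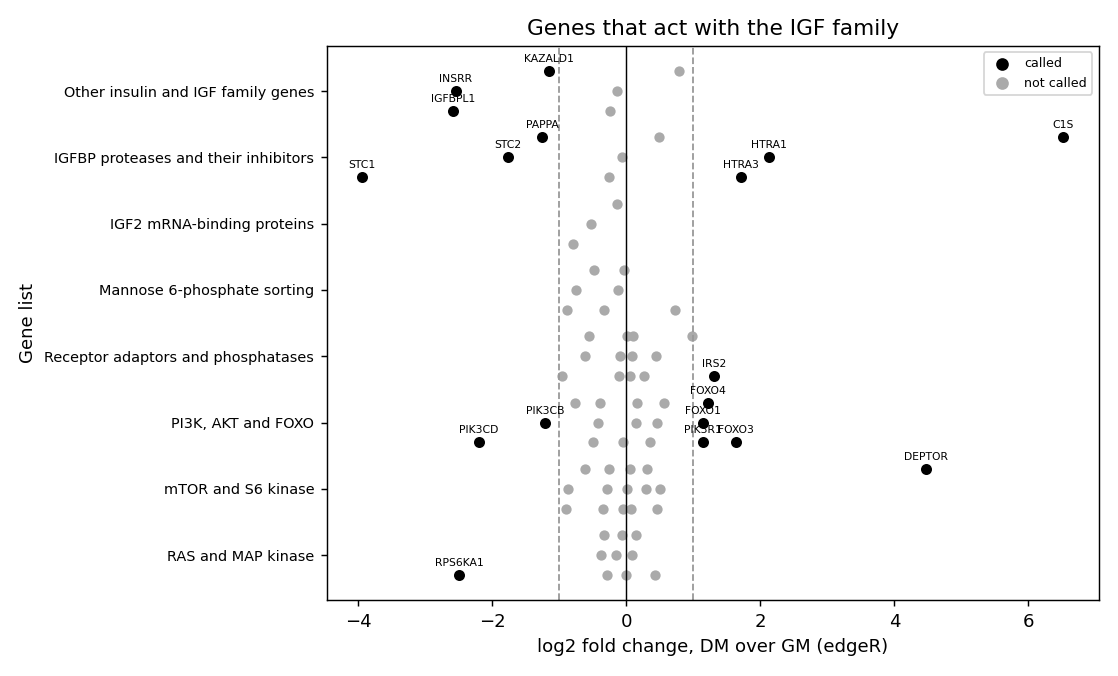
Log2 fold change, DM over GM, of the 79 tested genes in 8 lists that act with the IGF family, each point a gene, with called genes in black and named. Dashed lines mark the fold threshold. C1S at 6.52 and DEPTOR at 4.47 lie farthest to the right and STC1 at -3.94 farthest to the left, while most genes lie between the dashed lines.

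Markers of cell types that such cultures could hold moved between the groups as well. Their counts of calls stand beside 15.0% of all tested genes called higher and 10.3% called lower. All 10 myogenic markers were tested, 3 called higher (MYOG, MYH3 and CKM) and 2 lower (MYF5 and ITGA7), and their summed level ranged from 3355 to 3820 CPM in GM samples and from 4194 to 5763 CPM in DM samples. Without MYH3, left out after its values were seen, the other 9 markers summed to 3149 to 3405 CPM in GM samples and 2547 to 3055 CPM in DM samples, so that the sum was then lower in each DM sample than in any GM sample. The median log2 fold change of the 10 markers was -0.34. The fibroblast marker TCF21, with 0, 1 and 7 counts in GM samples and 0 in each DM sample, had too few counts to be tested. Of 9 tested fibroblast markers, 8 were called higher and 0 lower by edgeR. Their summed level ranged from 35351 to 36104 CPM in GM samples and from 97686 to 123631 CPM in DM samples. The collagen genes COL1A1, COL1A2 and COL3A1, which other cells also express, made up most of this sum. Their means were 15287, 10729 and 8298 CPM in GM samples and 44328, 23420 and 39251 CPM in DM samples. The 5 tested adipocyte markers, 2 of them called higher, summed to at most 3.75 CPM in GM samples and at most 8.27 CPM in DM samples. The 5 endothelial markers, 1 called higher and 2 lower, summed to at most 4.59 and 6.05 CPM. The 3 tested immune markers, 1 called higher and 1 lower, summed to at most 7.55 and 13.3 CPM, and PTPRC, the general marker of white blood cells, had at most 2 counts in any sample. The part of the fibroblast markers in the changes of IGF-I, C1S and the binding proteins was not tested.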

How the data were processed

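RNA-seq of 6 buffalo MuSC samples (3 GM and 3 DM) was analysed. Raw counts per gene and per mRNA transcript were deposited by the authors, whose methods name HISAT2 and the buffalo genome. The submitters' processing notes name Bowtie 0.12.2 with mm8 and mm9, and the tables list cattle Ensembl identifiers and no build, so coordinates are those of the tables. The RPKM values were computed by the authors from the counts, the Length column and the summed gene counts of each sample. Levels per length therefore rest on the listed lengths. The authors' lists of differentially expressed features (log2 fold changes, p-values and q-values for features past their thresholds) and the ncRNA table were not used.

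Counts of features with at least 10 counts in total were tested with edgeR 4.0.16 (R 4.3.3, TMM normalization, glmQLFit and glmQLFTest), with Benjamini-Hochberg adjustment over the whole table. The study's methods name DESeq2, which served here as an alternative (version 1.42.0). Standard errors were taken from the F statistic. Tables were summarised with Python 3.11.15 and pandas 2.3.3. On simulated counts with 200 features changed 4-fold, edgeR recovered 200 genes among 15584 tested and 198 mRNAs among 16339, with 1 and 2 unchanged features called. The simulation gave all features the same dispersion, changed none with few counts and held no sample that stood apart. It therefore does not show how well changes are recovered for genes with few counts or with DM replicate 3 included.

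The members and the 13 lists were chosen with earlier results of these data known. The text names every member, the called genes of each list that acts with the family (the 4 with the largest change where more were called), and further genes after their values were seen, among them IGF-I, POLR2B and the list genes that were not called. Alternatives were another normalization, other filters and thresholds, DESeq2, a replicate block and each sample left out. Counting error and the number of samples limit the precision. No sequence of the members was printed.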

Additional observations from a re-analysis of the deposited data

How the results depend on the processing

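The 8 members kept their calls, 1 higher (IGFBP7) and 2 lower (IGFBP5 and IGFBP6), with DESeq2, under both other normalizations, under each of the 3 other filters, when tested against a 2-fold change, and in each fit that dropped 1 sample. With no minimum fold change 3 members were called higher, IGF2R and IGFBP4 being added, and 3 lower, IGF1R being added. The transcripts of the members gave 3 higher and 3 lower under that setting. It called 63.0% of all tested genes and 64.6% of all tested transcripts. With IGF-I counted as IGF1, an alternative chosen after seeing the data, 2 members and 4 transcripts were called higher. IGF-I could not be tested under the RPKM filter, which it does not pass. The log2 fold change of IGF2 ranged from -0.073 to 0.33 when each sample was left out, that of its longer transcript from -0.085 to 0.32 and that of its shorter one from -0.17 to 0.19, with the negative values obtained without DM replicate 3. With library size alone the shorter transcript had -0.091, and that normalization moved the median of all tested transcripts from 0.032 to -0.12.

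Over the 8 linked lists, 24 of the 79 tested genes were called higher and 31 lower with no minimum fold change. Under that setting 63.0% of all tested genes were called. Testing against a 2-fold change left 6 called higher and 4 called lower, where genes with few counts or with changes near the threshold are lost by construction. The RPKM filter gave 9 and 5. It asks for at least 1 RPKM in more than 50% of samples, which DEPTOR and STC1 do not reach. The 9 higher calls were therefore not the same 9 genes. The shares of all genes called under these other settings are not given here. When each sample was left out, 9 to 10 were called higher and 7 to 8 lower.

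Deviations from the group means correlated between -0.0218 and -0.00756 for the 3 same-numbered pairs over genes. For pairs with unlike numbers they correlated between -0.0121 and 0.0238. With 3 samples per group these values cannot decide whether the replicate numbers pair the samples. A replicate block moved the calls from 3936 to 3837 genes and from 4184 to 4094 mRNAs. Under the block the members again gave 1 higher and 2 lower. Counts limit IGF-I and DEPTOR in GM samples and INSRR and IGFBPL1 in DM samples most.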

Other observations

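The loci of several members hold other listed genes. IGFBP2 and IGFBP5 stand with their ends facing each other on opposite strands of chromosome 2, with 11621 bases between the listed intervals, and their log2 fold changes were 0.23 and -4.36. IGF2 contains the listed microRNA gene bta-mir-483 on its own strand, which held between 0 and 5 counts per sample in these polyadenylated libraries. INS, the insulin gene listed before IGF2 on chromosome 29, had 0 counts in each GM sample and 0, 3 and 1 counts in DM samples, so it could not be tested.

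The ratio of IGF2 RPKM to the summed RPKM of the listed IGFBP genes, which lacks IGFBP3, was 1.02, 0.893 and 1.07 in the GM samples. It was 1.03, 1.21 and 2.07 in the DM samples, with DM replicate 3 highest and DM replicate 1 within the range of the GM samples. The ratio of IGF2 to IGF2R RPKM was 7.27, 7.80 and 8.32 in the GM samples and 3.90, 5.16 and 7.61 in the DM samples. That ratio was thus within the range of the GM samples only in DM replicate 3. The ratio of IGF-I to IGF1R RPKM was 0.0108 ± 0.00627 in GM samples and 0.440 ± 0.0692 in DM samples (SD, n = 3).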
